A study of Mus musculus with 6 samples.

Results

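The genes described here are 55 genes of mitosis: the cyclins and kinases of mitotic entry, the spindle checkpoint, kinesins, kinetochore subunits and the cytokinesis machinery. They were chosen by name from the known steps of mitosis, and all 55 were among the 11866 genes with a deposited value. RNA was sequenced after poly(A) capture from HCC3-4 cells, a mouse liver tumour line that was established from MYC transgenic mice. The KD group (n = 3 libraries) had been stably transfected with a short hairpin RNA against Sf3b3, and the PLKO group (n = 3) carried the pLKO.1-TRC control vector. Both groups share the MYC transgenic origin of the line, and the labels name no second hairpin, no rescue and no synchronisation of the cells. The study's title ties SF3B3 to splicing of the nuclear receptor FXR, and the comparison asks which transcript levels differ between knockdown and control cells. Whether the 3 libraries of a group are separate cultures is not labelled. The p-values therefore describe variation among these 6 libraries, and part of it may be technical.

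Cells build up mitotic transcripts in G2 and destroy many of the proteins at the end of mitosis. Cyclin B with CDK1 drives entry, kinetochores tie chromosomes to spindle microtubules, and the checkpoint holds back the anaphase-promoting complex (APC/C, a ubiquitin ligase) until every chromosome is attached. The chromosomal passenger complex corrects wrong attachments and later marks the site of cytokinesis. Most of these genes are switched on together in G2 through promoters that hold CCAAT boxes, bound by the factor NF-Y, and a cell cycle genes homology region (CHR), bound by MuvB complexes with B-MYB and FOXM1. In bulk RNA, fewer cells in G2 or mitosis and less RNA in each such cell cannot be told apart.

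The promoters are shown as a description, and whether their matches bear on the differences between KD and PLKO was not tested. RefSeq promoters (GRCm38.p6, 250 bases before to 50 after the start site) were matched for 47 of the 55 genes, with 52 promoters in all. Ccna2, Cdc25c, Foxm1, Spc24, Aurkb, Incenp, Tpx2 and Kif20a had no entry. CCAAT, or ATTGG on the other strand, stood in 39 of the 52 promoters (75.0%), against 37.4% of all 32851 promoters of this length. TTTGAA, or TTCAAA on the other strand, stood in 36 (69.2%), against 17.9% of all promoters. TTTAAA, which reads the same on both strands, stood in 10 (19.2%), against 13.2%. A CCAAT match together with either hexamer was found in 33 (63.5%), against 10.7% of all promoters and 7.5% of the 10568 promoters of tested genes. Matches that overlap each other were all counted, and 7 genes (Kif18a, Mad2l1, Mybl2, Nuf2, Nusap1, Pttg1 and Ube2s) had none in the window. The 250 bases before the start site follow for Cenpn, which fell in KD, for Cdk1 and Hmmr, whose 3 KD libraries were above all PLKO libraries, and for Ccnb1, whose groups overlapped. Capitals mark matches to the CCAAT and hexamer letters.
Cenpn, chr8:116921490-116921739, plus strand: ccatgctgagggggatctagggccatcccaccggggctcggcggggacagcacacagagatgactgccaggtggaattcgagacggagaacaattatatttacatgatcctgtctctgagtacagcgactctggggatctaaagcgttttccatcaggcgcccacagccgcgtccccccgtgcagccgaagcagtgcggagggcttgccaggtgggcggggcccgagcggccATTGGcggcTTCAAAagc
Cdk1, chr10:69352913-69353162, minus strand: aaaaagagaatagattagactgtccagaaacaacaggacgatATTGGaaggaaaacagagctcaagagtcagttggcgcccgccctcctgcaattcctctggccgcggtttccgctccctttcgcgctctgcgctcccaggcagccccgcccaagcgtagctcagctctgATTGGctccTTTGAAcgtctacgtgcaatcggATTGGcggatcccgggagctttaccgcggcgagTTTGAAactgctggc
Hmmr, chr11:40733438-40733687, minus strand: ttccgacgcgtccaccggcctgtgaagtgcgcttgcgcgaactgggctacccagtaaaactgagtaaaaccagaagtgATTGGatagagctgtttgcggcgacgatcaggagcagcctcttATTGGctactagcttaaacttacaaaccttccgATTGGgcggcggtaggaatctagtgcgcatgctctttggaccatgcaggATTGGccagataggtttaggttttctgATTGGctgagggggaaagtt
Ccnb1, chr13:100786487-100786736, minus strand: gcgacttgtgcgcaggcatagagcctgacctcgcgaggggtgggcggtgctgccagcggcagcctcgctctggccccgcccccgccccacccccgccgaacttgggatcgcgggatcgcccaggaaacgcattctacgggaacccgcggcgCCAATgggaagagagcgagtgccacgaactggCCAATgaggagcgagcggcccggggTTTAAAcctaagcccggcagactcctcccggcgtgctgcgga
The Cenpn promoter holds 1 CCAAT match, 18 bases before the start, and 1 TTTGAA match, 9 bases before it. Cdk1 has 3 and 2 such matches, and Hmmr has 5 CCAAT matches and a TTTGAA match 9 bases after the start, outside the printed stretch. Ccnb1 has 2 CCAAT matches and a TTTAAA match 42 bases before the start.

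Sf3b3, the targeted gene and a subunit of the SF3b part of the spliceosome, checked the labels. It stood at 22.6, 28.7 and 29.2 FPKM (fragments per kilobase of gene, scaled to library size) in PLKO 1, 2 and 3 and at 10.3, 9.56 and 13.9 FPKM in KD 1, 2 and 3. Its log2 fold change was -1.26 (SE 0.23, limma adjusted p = 0.037), and an exact two-sided permutation test gave p = 0.1, which is as low as this number of libraries can reach. Reads on listed genes, recovered from the values, came to between 15140441 and 17566101 per library. The members had from 97 (Cenpk) to 13291 (Top2a) reads in a library, the first in PLKO 2 and the second in PLKO 1. Of 10 liver epithelial markers, 3 were listed (Krt8, Krt18 and Afp, which summed to 59.7 to 86.7 FPKM in PLKO and 52.6 to 86.9 FPKM in KD), whereas Alb, Ttr, Apoa1 and Hnf4a, which define hepatocytes, were not among the genes analysed here. Of 8 fibroblast markers, 5 were listed, and they summed to 102.8 to 157 FPKM in PLKO and 52.9 to 75.7 FPKM in KD, mostly Pdgfrb and Col3a1. Of 9 leukocyte markers, Cd68 and Cd14 were listed (14.9 to 53.1 FPKM in PLKO, 53.3 to 113 FPKM in KD), and Ptprc, Adgre1 and Csf1r were not among the genes analysed here. Of 6 endothelial markers Vwf alone was listed, at up to 0.316 FPKM. The part of these marker differences in the results for mitotic genes was not tested.

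Mitotic genes as a group did not move one way in the Sf3b3 knockdown. The kinetochore subunits Spc24 and Cenpn fell, and they were the 2 of 55 members called (limma adjusted p under 0.05 over the 10770 genes tested), which is 3.64% of the members. In this comparison 2.92% of all tested genes were called (1.79% lower and 1.12% higher), so the share among members was near the background. No member was called higher. A positive log2 fold change was found for 21 members (38.2%, against 47.7% of all tested genes) and a negative one for 34. The members' median was -0.16, against -0.04 over all tested genes. In 34 members the log2 fold change was within 0.5 of zero (61.8%, against 59.9% of all tested genes). The 3 KD libraries were all above the PLKO libraries for 7 members and all below them for 10, 30.9% in sum, against 32.1% of all tested genes (13.4% above and 18.8% below). The median half-width of a member's 95% interval was 0.60 on the log2 scale, so a smaller change in a typical member could not be told from zero even before adjustment.

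**Figure D1:**
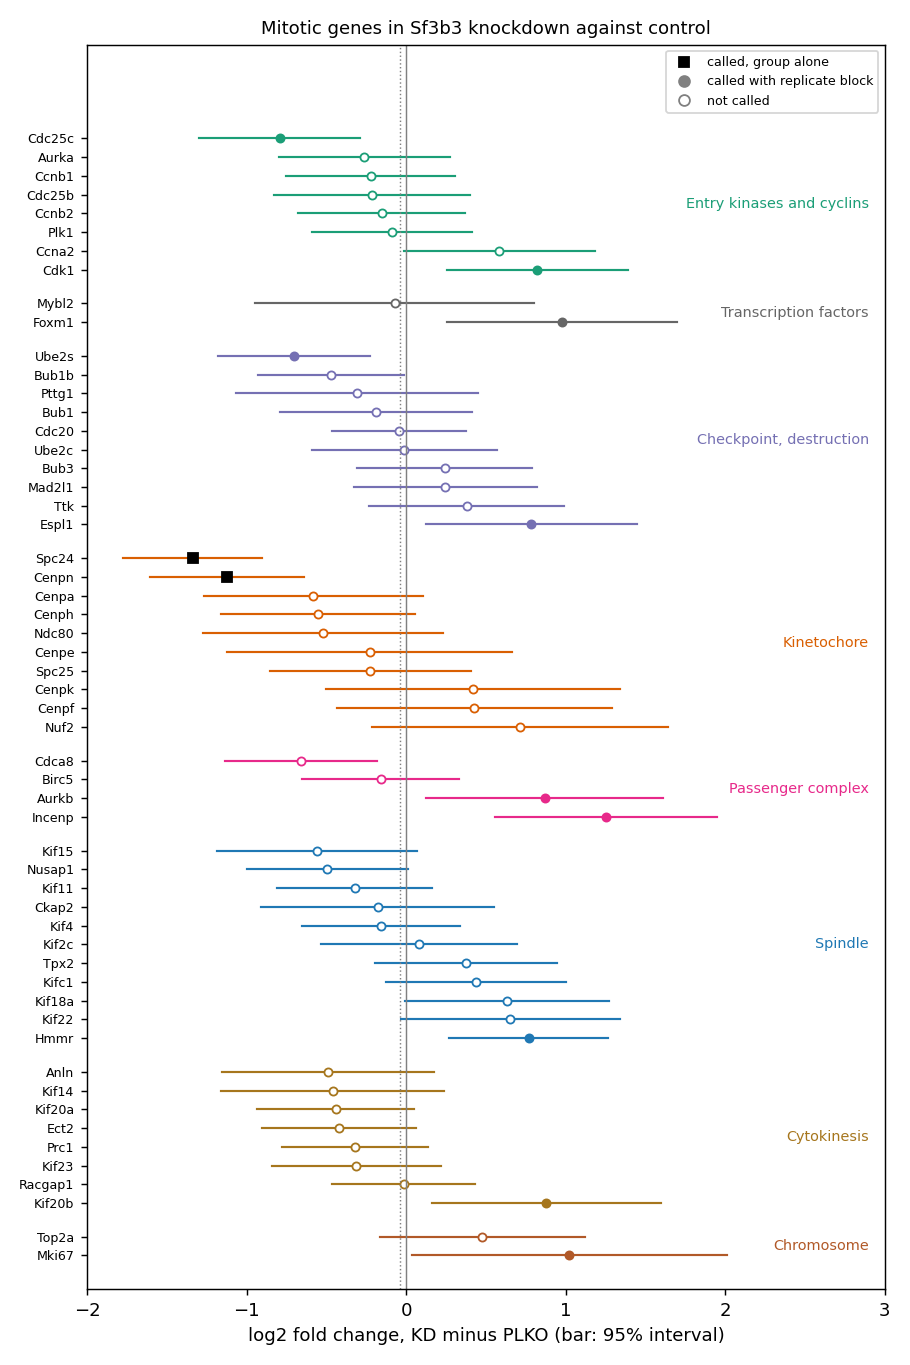
Log2 fold change (KD minus PLKO) of each of the 55 mitotic genes with its 95% interval, ordered by step of mitosis; the dotted line is the median of all tested genes. Black squares are Spc24 and Cenpn, called with the group alone at -1.34 and -1.12; filled circles are the 10 further genes called when the replicate number entered as a block.

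No label pairs equally numbered libraries. The pairing was taken from these same data, and libraries 1 and 2 correlated no less across numbers than within them. When the replicate number entered the model as a block, 12 of the 55 members were called, 8 higher and 4 lower. That is 21.8% of the members, and 19.3% of all tested genes were called with the block (8.19% higher and 11.1% lower), again near the background. The 8 called higher were Cdk1, Foxm1, Espl1, Incenp, Aurkb, Hmmr, Kif20b and Mki67, and the 4 called lower were Spc24, Cenpn, Cdc25c and Ube2s. Without both libraries numbered 3, 16 members were called (7 higher, 9 lower), or 29.1%, against 27.9% of all tested genes (11.9% higher and 16.0% lower), and 9 of the 12 were among them. Without PLKO 1, PLKO 2, KD 1 or KD 2, limma called no gene, member or other (0 of 10770, with 1793 to 2315 at an unadjusted p under 0.05). All calls of the group-alone fit, those of Spc24 and Cenpn included, therefore rest on each of these 4 libraries.

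Among the control libraries PLKO 1 stood apart for these genes. PLKO 1 was the highest of the 3 PLKO libraries in 45 of the 55 members (81.8%), against 25.4% of all tested genes. PLKO 2 was the lowest PLKO library in 33 members (60.0%), against 31.2% of all tested genes. The median member stood 0.45 higher in PLKO 1 than in PLKO 2 on the log2 scale, whereas the median of all tested genes was -0.06 for the same difference. It stood 0.37 higher in PLKO 1 than in PLKO 3, and the median of PLKO 2 minus PLKO 3 was -0.15, about the size of the median between the groups. Relative to each gene's mean over the 6 libraries, the median member stood at 0.32 in PLKO 1, -0.22 in PLKO 2, -0.06 in PLKO 3, -0.10 in KD 1, -0.04 in KD 2 and -0.01 in KD 3. These KD medians lay between those of PLKO 1 and PLKO 2. Gene by gene the KD libraries still differed, with a median range of 0.50 on the log2 scale over the members, against 0.60 among the PLKO libraries and 0.55 among the KD libraries over all tested genes. Without PLKO 1 the median log2 fold change of the members was 0.03 in place of -0.16, with 30 of 55 higher, and without PLKO 2 it was -0.23.

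**Figure D2:**
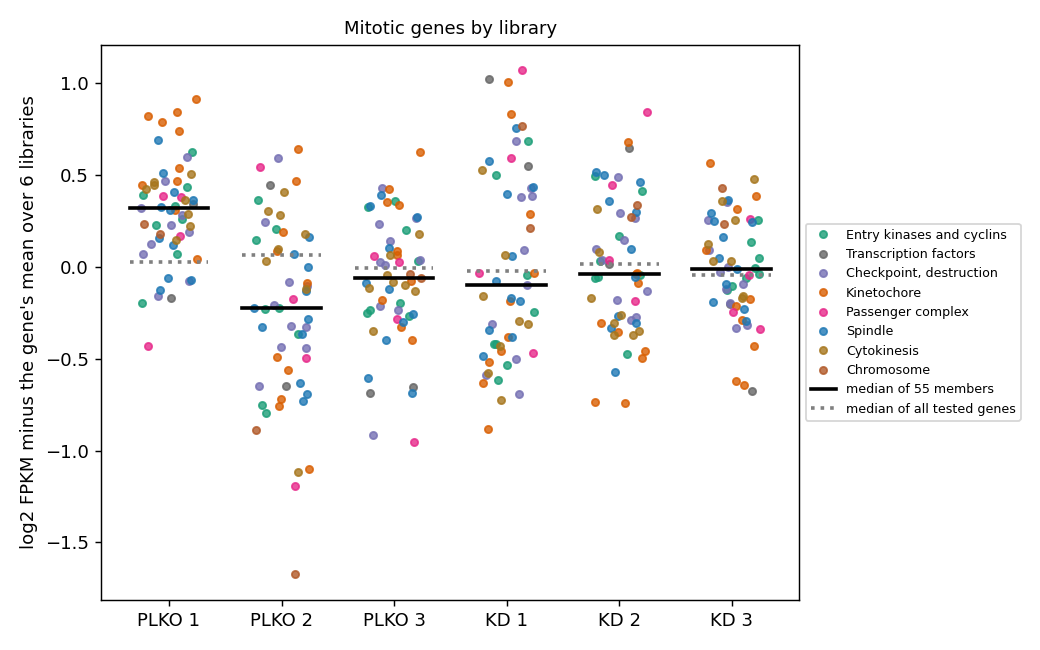
Deviation of each of the 55 mitotic genes from its own mean over 6 libraries (log2 FPKM, 1 point per gene, coloured by step), with the members' median (black) and the median of all tested genes (dotted). The members' median is 0.32 in PLKO 1 and -0.22 in PLKO 2, while the 3 KD libraries lie between -0.10 and -0.01.

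DNA replication genes, which peak earlier in the cycle, showed the same order among the controls and another one among the knockdown libraries. Their median deviation was 0.29, -0.25 and -0.22 in PLKO 1, 2 and 3, and 0.47, 0.16 and -0.32 in KD 1, 2 and 3. KD 3 was the lowest KD library for 32 of 41 replication genes (78.05%) and for 21 of the 55 mitotic genes (38.2%), against 45.1% of all tested genes. Among the 8 mitotic genes called higher with the block, KD 3 was the lowest KD library for 6 and PLKO 2 the lowest PLKO library for 5. Those 8 were picked by a fit that used the library number, so these counts are a description. Sf3b3 itself was highest in KD 3 among the KD libraries, and whether its level bears on these genes was not tested. Replication genes went both ways, with 24 of 41 higher in mean (58.5%, against 47.7% of all tested genes). Their median log2 fold change was 0.17. Of these 41 genes 1 was called (2.44%, against 2.92% of all tested genes), Prim1 at -1.27. With the block 7 were called higher and 4 lower (26.8%, against 19.3%), among the former the helicase subunits Mcm3 at 1.76 and Mcm4 at 1.25, and among the latter Orc2 at -1.39 and Prim2 at -1.31.

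Mitotic entry genes held no call with the group alone, and with the block Cdk1 was called higher and Cdc25c lower. Cdk1, the kinase of mitotic entry, had 30.9, 20.4 and 29.8 FPKM in PLKO and 57.0, 49.9 and 36.5 FPKM in KD. All KD libraries were above all PLKO libraries, with KD 3 the closest to the controls. The log2 fold change was 0.82 (SE 0.25, limma adjusted p = 0.086, and 0.032 with the block). Cdc25c, the phosphatase that activates CDK1, had 22.9, 17.1 and 19.0 FPKM in PLKO and 9.69, 10.7 and 13.8 FPKM in KD. Here every KD library was below the controls, and the log2 fold change was -0.79 (SE 0.22, limma adjusted p = 0.073, and 0.032 with the block). Cdc25c overlaps Gm3550 on the opposite strand, and whether strand was used in counting is not given in the sources used here.

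Cyclins of mitosis did not pass the test in either fit. Ccna2, cyclin A2 of S phase and G2, had 37.6, 21.2 and 31.2 FPKM in PLKO and 50.6, 47.6 and 34.8 FPKM in KD (log2 fold change 0.58, SE 0.26, limma adjusted p = 0.19). KD 3 lay below PLKO 1, so the groups overlapped. Ccnb1, cyclin B1, had 47.5, 34.7 and 50.8 FPKM in PLKO and 30.3, 39.0 and 44.6 FPKM in KD, with a log2 fold change of -0.22 and a 95% interval from -0.75 to 0.31. Its groups overlapped, and near-identical sequences (Ccnb1-ps, Gm12856 and Gm8416, at 97.3% to 99.2% identity over 1287 to 1294 bases) can share its reads. Ccnb2 at -0.15, the kinases Plk1 at -0.09 and Aurka at -0.26, and the phosphatase Cdc25b at -0.21 had limma adjusted p from 0.49 to 0.82.

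Foxm1 was called higher with the block, and Mybl2 in neither fit. Foxm1, a forkhead activator of G2 genes, had 20.5, 14.7 and 14.7 FPKM in PLKO and 46.8, 36.1 and 20.0 FPKM in KD. KD 1 and KD 2 were above all controls, and KD 3 was just below PLKO 1. The log2 fold change was 0.98 (SE 0.32, limma adjusted p = 0.096, and 0.015 with the block). Mybl2, which encodes B-MYB, had 14.2, 15.2 and 6.95 FPKM in PLKO and 16.4, 11.3 and 6.99 FPKM in KD, with both libraries numbered 3 lowest. Its log2 fold change was -0.07 with an interval from -0.95 to 0.80, and part of its transcript matches Gm3320 at 99.7% identity.

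Checkpoint and destruction genes centred on zero, with a median log2 fold change of -0.03 over 10 genes. Ube2s, which extends ubiquitin chains for the APC/C, had 31.8, 41.0 and 31.9 FPKM in PLKO and 18.0, 22.5 and 23.7 FPKM in KD. The groups did not overlap, and the log2 fold change was -0.70 (SE 0.21, limma adjusted p = 0.082, and 0.039 with the block). Espl1, the separase that cuts cohesin at anaphase, went the other way. It had 7.14, 7.42 and 4.23 FPKM in PLKO and 12.8, 11.2 and 7.97 FPKM in KD, and its fold change on the log2 scale was 0.78 (SE 0.29, limma adjusted p = 0.13, and 0.028 with the block). Its inhibitor securin (Pttg1) had a log2 fold change of -0.31 with an interval from -1.07 to 0.45.

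Bub1b, which encodes the checkpoint kinase-like protein BUBR1, had 43.7, 41.5 and 38.5 FPKM in PLKO and 24.8, 30.9 and 34.3 FPKM in KD. All KD libraries were lower, but the log2 fold change of -0.47 (SE 0.20) did not pass the test with or without the block (limma adjusted p = 0.15 and 0.17). The other checkpoint genes were Bub1 at -0.19, Bub3 at 0.24, Mad2l1 at 0.25 and the kinase Ttk at 0.38, with overlapping groups. Cdc20, the APC/C activator that the checkpoint restrains, and Ube2c, the ubiquitin-conjugating enzyme that starts chains, had log2 fold changes of -0.05 and -0.01. Of the exonic length of Ube2c, 22.8% overlaps Tnnc2 on the opposite strand. Cdc20 stood at 84.2 to 101 FPKM over the 3 KD libraries and 86.1 to 99.5 FPKM over the controls.

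At the kinetochore Spc24 and Cenpn fell, and the other members of this step passed the test in neither fit. The 2 were 20% of the 10 kinetochore members, against 2.92% of all tested genes with the group alone and 19.3% with the block. Kinetochore subunits outside the members, some of them called, are given further below. Spc24, a subunit of the NDC80 complex that grips microtubules, had 14.1, 13.2 and 13.1 FPKM in PLKO and 5.48, 5.10 and 5.43 FPKM in KD. The libraries within each group lay close together, and KD stood at 39.6% of the control mean. On the log2 scale it fell by 1.34 (SE 0.19, limma adjusted p = 0.029, and 0.0032 with the block). It was covered by 531 to 657 reads in PLKO and 206 to 243 in KD, and lies on chromosome 9 from 21755442 to 21760303 (GRCm38, minus strand) with no overlapping gene. Leaving out 1 library gave adjusted p of 0.13 (PLKO 1), 0.12 (PLKO 2), 0.13 (KD 1) and 0.19 (KD 2), with log2 fold changes from -1.36 to -1.30 over all 6 such fits.

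Other NDC80 subunits were spread around zero. Nuf2 had 8.55, 5.04 and 6.28 FPKM in PLKO and 16.7, 13.3 and 5.39 FPKM in KD, with KD 3 at the level of the controls (log2 fold change 0.71, limma adjusted p = 0.29). Ndc80 stood at -0.52 and Spc25, the direct partner of SPC24, at -0.22 (interval -0.85 to 0.41). The differences between these subunits were not tested. NUF2 pairs with NDC80 and SPC24 with SPC25 in the complex.

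Cenpn, which binds CENP-A nucleosomes in the inner kinetochore, had 14.9, 11.9 and 11.5 FPKM in PLKO and 6.03, 5.15 and 6.40 FPKM in KD. KD stood at 45.8% of the control mean, and the groups lay far apart. On the log2 scale it fell by 1.12 (SE 0.21, limma adjusted p = 0.040, and 0.0070 with the block), on 600 to 887 reads in PLKO and 267 to 368 in KD. It lies on chromosome 8 from 116921730 to 116941507 (plus strand), with no overlapping gene in the annotation. Without PLKO 1, PLKO 2, KD 1 or KD 2 its adjusted p was 0.14, 0.13, 0.16 and 0.19, and without the mean-variance trend it was 0.053. Its log2 fold change stayed between -1.442 and -1.004 over all 17 alternatives.

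Cenph, an inner kinetochore subunit, had 24.4, 12.8 and 14.2 FPKM in PLKO and 12.0, 10.6 and 11.1 FPKM in KD. Every KD library was below the controls, PLKO 1 stood apart at the top, and the log2 fold change of -0.55 did not pass (limma adjusted p = 0.21). Cenpk, which binds CENPH in the complex, stood at 0.42, on the fewest reads of all members. Cenpa, the histone H3 variant that marks centromeres, stood at -0.58 with 18.6 FPKM in KD 3, inside the control range, and 8.10 and 12.1 FPKM in KD 1 and 2. Cenpe, a kinesin at the outer kinetochore, stood at -0.23 and Cenpf, a large outer kinetochore protein, at 0.43. Their control libraries ranged from 8.28 to 21.6 FPKM for Cenpe and from 3.84 to 12.0 FPKM for Cenpf.

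**Figure D3:**
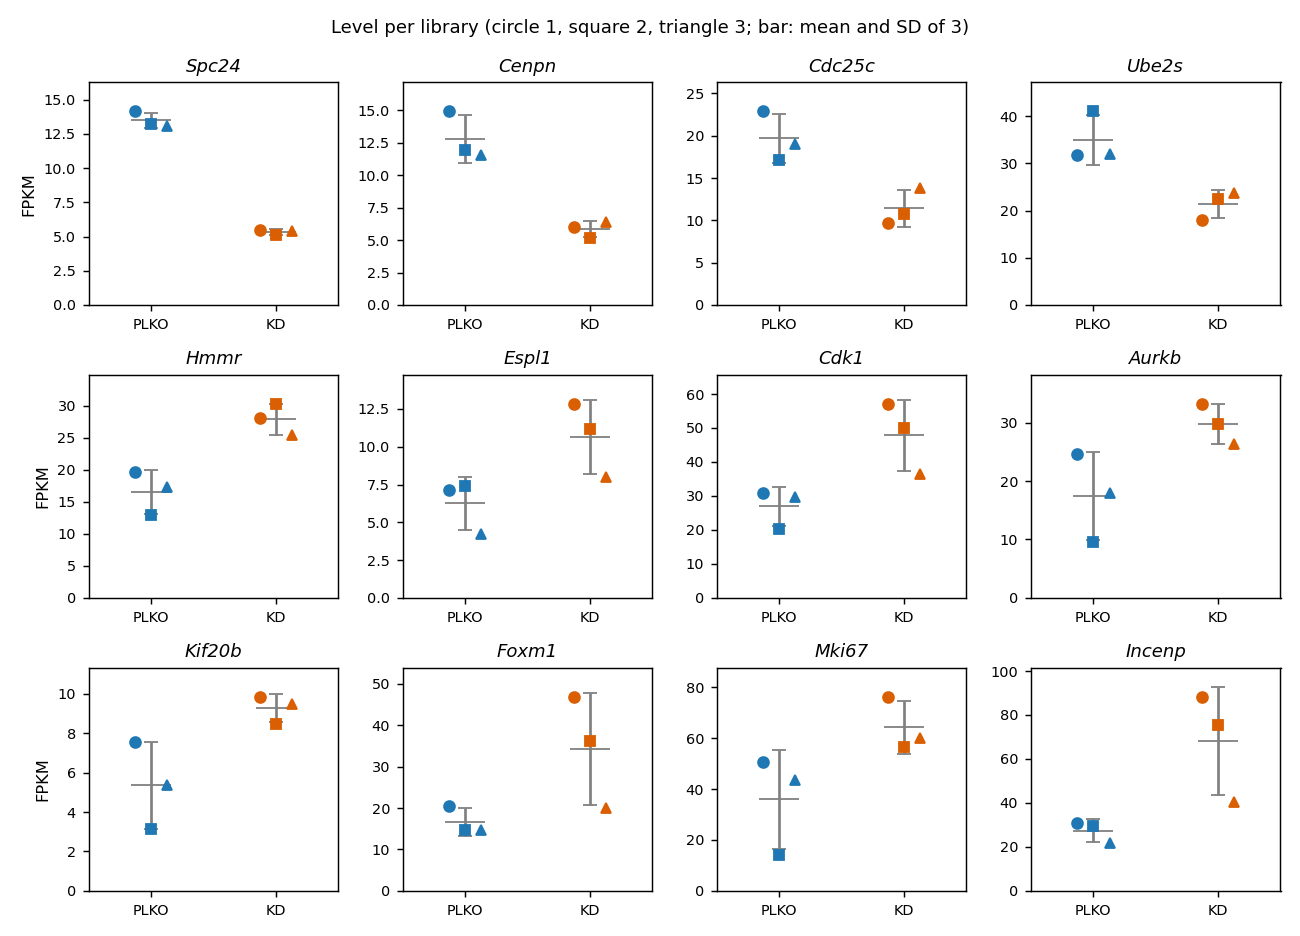
FPKM per library of the 12 mitotic genes called with the replicate block, in order of fold change from Spc24 to Incenp; symbols give the library number, bars the mean and SD of 3. Spc24 and Cenpn, the 2 called with the group alone, show tight and well separated groups. KD 3 (triangle) is the KD library nearest the controls for Cenpn, Cdc25c, Ube2s, Cdk1, Foxm1, Espl1, Incenp, Aurkb and Hmmr. It is not for Spc24, Kif20b and Mki67. These 12 genes were picked with the block fit, and the same count was not made over all tested genes.

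Subunits of the chromosomal passenger complex went in different directions. Incenp, its scaffold, had 31.1, 29.7 and 21.6 FPKM in PLKO and 88.1, 75.2 and 40.6 FPKM in KD, the highest log2 fold change of the 55. All KD libraries were above the controls, but they spread more than 2-fold, and the log2 fold change was 1.25 (SE 0.31, limma adjusted p = 0.059, and 0.0046 with the block). Aurkb, its kinase, had 24.7, 9.58 and 18.0 FPKM in PLKO and 33.1, 29.8 and 26.3 FPKM in KD. The groups did not overlap, PLKO 2 was the lowest, and the log2 fold change was 0.87 (SE 0.33, limma adjusted p = 0.13, and 0.036 with the block), or 0.49 without PLKO 2.

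Cdca8, which encodes borealin, had 23.1, 25.9 and 18.5 FPKM in PLKO and 12.8, 15.6 and 14.0 FPKM in KD. Every KD library was lower (log2 fold change -0.66, SE 0.21), and the limma adjusted p was 0.092, or 0.0501 with the block, just outside the threshold. Birc5, which encodes survivin, stood at -0.16 with an interval from -0.65 to 0.33.

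Spindle genes were split, with 6 of 11 higher in mean (54.55%, against 47.7% of all tested genes) and 1 called with the block. Hmmr, a microtubule-binding protein of spindle poles, had 19.6, 12.9 and 17.3 FPKM in PLKO and 28.1, 30.2 and 25.4 FPKM in KD. The groups were well apart, and the log2 fold change was 0.77 (SE 0.22, limma adjusted p = 0.076, and 0.035 with the block). Kif18a, a kinesin that damps chromosome movement, had 3.66, 3.13 and 2.50 FPKM in PLKO and 5.70, 5.26 and 3.58 FPKM in KD. Its KD 3 value lay just below PLKO 1, and the log2 fold change of 0.63 did not pass (limma adjusted p = 0.18). Nusap1, which bundles microtubules near chromosomes, had 28.5, 21.5 and 27.0 FPKM in PLKO and 15.4, 17.4 and 22.2 FPKM in KD (log2 fold change -0.49, limma adjusted p = 0.19), with KD 3 above PLKO 2.

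Motors that build the bipolar spindle also differed in sign and none passed. Kif11, the main motor of pole separation, stood at -0.32, and Kif15, which can share that task, at -0.56. Kifc1, a minus-end motor, stood at 0.44, and its reads can be shared with Kifc5b (96.8% identity over 98.1% of the transcript). The chromosome-arm kinesins Kif22 and Kif4 stood at 0.65 and -0.16, and the microtubule depolymerase Kif2c at 0.08. Tpx2, which activates Aurora A on the spindle, stood at 0.37 and Ckap2, a spindle-associated protein, at -0.18. For these 8 genes limma gave adjusted p between 0.20 and 0.87, and 0.051 for Kif22 with the block.

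Cytokinesis genes were lower in mean for 7 of 8 (12.5% higher, against 47.7% of all tested genes), with no call lower in either fit. Kif20b, a kinesin of late mitosis, was the exception, at 7.55, 3.15 and 5.36 FPKM in PLKO and 9.83, 8.48 and 9.50 FPKM in KD. The KD libraries were above the controls (log2 fold change 0.88, SE 0.32, limma adjusted p = 0.12, and 0.030 with the block). Without PLKO 2, the lowest library, the log2 fold change was 0.54. Kif20a, which brings the passenger complex to the midzone, had 25.5, 19.1 and 21.1 FPKM in PLKO and 13.8, 15.6 and 19.1 FPKM in KD. This difference of -0.44 on the log2 scale did not pass (limma adjusted p = 0.22), and 29.3% of its exonic length overlaps Cdc23 on the opposite strand. Ect2, the exchange factor that switches on RhoA at the cell equator, had 27.6, 21.4 and 20.9 FPKM in PLKO and 16.1, 15.7 and 20.4 FPKM in KD (log2 fold change -0.42, limma adjusted p = 0.23).

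The remaining cytokinesis genes did not pass the test in either fit. Anln, an actin-binding scaffold, stood at -0.49 and Kif14 at -0.46. Prc1, which bundles midzone microtubules, stood at -0.32, with the KD libraries all between 15.4 and 15.5 FPKM. Kif23 and Racgap1 form the centralspindlin complex, and stood at -0.31 and -0.02. The median of the 8 genes was -0.37, against -0.16 over all 55 members.

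Mki67 and Top2a, general proliferation markers, depended on PLKO 2. Mki67, which encodes the Ki-67 coat protein of mitotic chromosomes, had 50.5, 14.0 and 43.5 FPKM in PLKO and 76.1, 56.5 and 60.2 FPKM in KD. All KD libraries were higher, and the log2 fold change was 1.02 (SE 0.44, limma adjusted p = 0.17, and 0.028 with the block), but 0.44 without PLKO 2. Top2a, the topoisomerase that untangles chromosomes, had 81.4, 37.4 and 66.4 FPKM in PLKO and 80.3, 83.8 and 81.4 FPKM in KD. The KD values lay near PLKO 1, and the log2 fold change was 0.48 (limma adjusted p = 0.30), or 0.15 without PLKO 2.

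Genes of the same steps outside the 55 were read from 7 lists with 160 genes, of which 158 were tested. Of these 3 were called higher and 4 lower (4.43%, against 2.92% of all tested genes), and with the block 24 and 15 (24.7%, against 19.3%). Among 19 genes of the APC/C and of checkpoint removal, 2 were called lower and none higher (10.53%, against 2.92% of all tested genes, 1.79% lower). Anapc16, an APC/C subunit, went from 21.7 ± 4.82 FPKM (SD, n = 3) to 6.73 ± 2.02 FPKM (log2 fold change -1.71, limma adjusted p = 0.032). Trip13, the ATPase that takes apart the checkpoint complex, went from 11.7 ± 2.97 to 3.99 ± 0.631 FPKM (-1.54, limma adjusted p = 0.032). With the block 5 of the 19 were called lower and none higher (26.3%, against 19.3% of all tested genes, 11.1% lower). Mad1l1, Cdc16 and Cdc23 were the others.

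Other kinetochore genes held 1 call among 29 (3.45%, against 2.92% of all tested genes). Zwilch, a subunit of the RZZ complex that recruits checkpoint proteins, went from 12.1 ± 2.15 to 5.13 ± 0.986 FPKM (-1.24, limma adjusted p = 0.042). With the block 5 were called higher and 5 lower (34.5%, against 19.3% of all tested genes). Among the latter were Cenpm at -1.02 and Cenpt at -0.79, both subunits of the inner kinetochore. Haus7, a subunit of the augmin complex that branches spindle microtubules, went from 55.04 ± 15.3 to 16.6 ± 6.32 FPKM (-1.76, limma adjusted p = 0.036), the 1 call among 33 centrosome and spindle genes. With the block Haus1, another augmin subunit, was called lower at -0.98, and Cep55, which acts in abscission, higher at 1.43. Condensin and cohesin genes had no call among 21 (0%, against 2.92% of all tested genes). In mean 17 were higher (80.95%, against 47.7% of all tested genes), with a median of 0.43. With the block 3 were called higher and 1 lower (19.05%, against 19.3% of all tested genes), near the background. Those higher were Cdca5 (sororin) at 1.25, the condensin subunit Smc2 at 0.95 and the cohesin acetyltransferase Esco2 at 0.80. Smc4, the partner of SMC2 in condensin, was the one called lower, at -0.82.

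Genes that set entry and exit had 15 of 17 higher in mean (88.2%, against 47.7% of all tested genes). They held 1 call (5.88%, against 2.92%). Cdc14b, a phosphatase linked to mitotic exit, went from 1.71 ± 0.392 to 7.89 ± 2.95 FPKM (2.15, limma adjusted p = 0.032). With the block 5 of the 17 were called higher and none lower (29.4%, against 19.3% of all tested genes). Among them were Cdc25a, a CDK-activating phosphatase, at 1.28 and Mastl, a kinase that restrains the phosphatase PP2A in mitosis, at 0.89. Among 22 tested regulators of cell cycle transcription, 2 were called higher and none lower (9.09%, against 2.92% of all tested genes, 1.12% higher). Nfya, a subunit of NF-Y, went from 9.07 ± 2.81 to 27.1 ± 8.61 FPKM (1.57, limma adjusted p = 0.042). E2f7, a repressor of E2F targets, went from 2.02 ± 0.108 to 6.02 ± 2.15 FPKM (1.52, limma adjusted p = 0.043). With the block 6 of the 22 regulators were called higher and none lower (27.3%, against 19.3% of all tested genes), among them Lin9, a core MuvB subunit, at 1.04. The 17 tested cytokinesis genes outside the members held no call. With the block 1 of them, Arhgef2, was called lower (5.88%, against 19.3% of all tested genes). As for the members, none of these genes was called without PLKO 1, PLKO 2, KD 1 or KD 2.

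**Figure D4:**
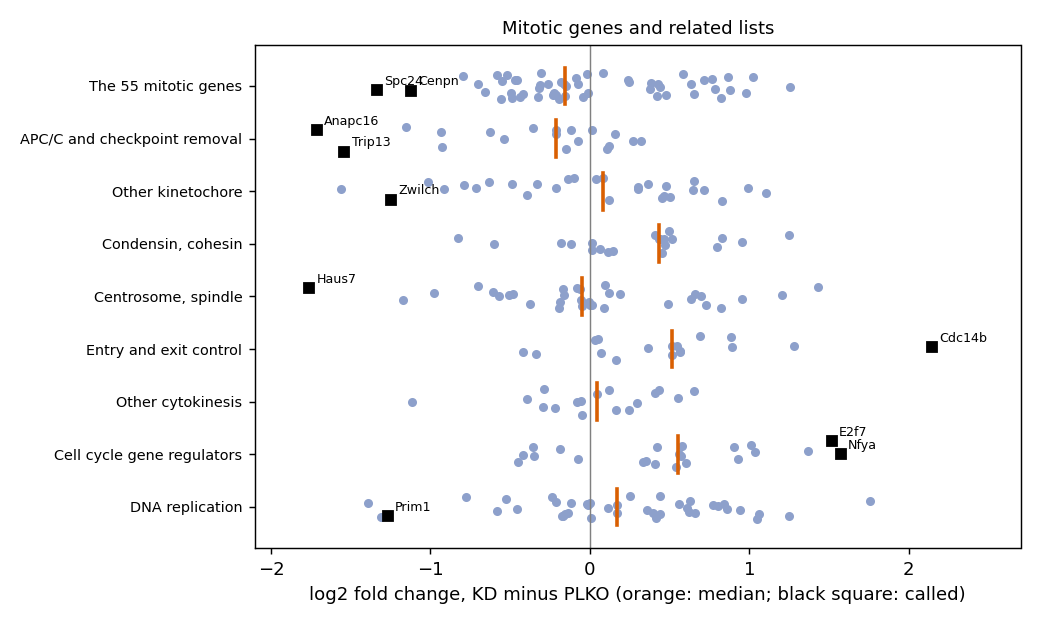
Log2 fold change (KD minus PLKO) of the tested genes in the 55 mitotic genes and 8 related lists, 1 point per gene, with the median in orange and genes called with the group alone as named black squares. The median is -0.16 for the mitotic genes, 0.52 for entry and exit control and 0.55 for regulators of cell cycle genes.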

How the data were processed

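The authors deposited 1 table of log2 FPKM for 11866 genes in 6 libraries. The submitters' processing notes name GRCm38 and FastQC 0.11.7. The sources used here give no aligner, counter, strand setting or gene filter. Steps in the deposited values matched whole reads plus a prior of 2.0 reads on average (tolerance 0.01), with exonic lengths of GENCODE M21 for 10985 genes and lengths found by scanning for 881. This prior shrinks fold changes of genes with few reads. limma 3.58.1 in R 4.3.3 was fitted with a trended prior variance to those log2 values, unchanged, for the 10770 genes whose FPKM averaged 1 or more. The model held the group alone (4 residual degrees of freedom), with Benjamini-Hochberg adjustment over all 10770. FPKM are 2 raised to the deposited value, and fold changes are KD minus PLKO.

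Deviations of equally numbered libraries from their group means correlated at 0.18, 0.29 and 0.50, all over the limit of 0.1, so the numbers were taken to pair libraries. No label states such a pairing, and libraries 1 and 2 correlated no less crosswise (0.27 for PLKO 1 with KD 2 and 0.30 for PLKO 2 with KD 1). Values per library were given for Sf3b3, called members, the 3 members of each step with the lowest p, Ccnb1, Cdk1, Mki67, Top2a and the highest and lowest fold change. Outside the members, genes called with or without the block were named, up to 3 per list. Nuf2's values per library, and the names Cdc16, Cdc23, Smc4, Mcm3 and Mcm4, were added after values were seen. The members and lists were chosen with earlier results of these data known. Dates stood in place of names for 11 septins, which were matched by length. The fit was also run on simulated libraries drawn independently of each other. Dependence between libraries, as seen here, was not simulated, so that run cannot decide whether the calls hold in these data. Alternatives were other scales, filters, normalizations, weights, voom on recovered reads, the replicate block and libraries left out.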

Additional observations from a re-analysis of the deposited data

How the results depend on the processing

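Direction was the same for Spc24 and Cenpn in all 17 alternatives, with a call in 13 and 12 of them. Against 314 genes and 2 members called, the counts ran from 0 to 1744 and from 0 to 10 with 1 library left out, and both were 0 without PLKO 1, PLKO 2, KD 1 or KD 2. They were 2080 and 12 with the replicate block, 3009 and 16 without both libraries numbered 3, and 151 and 1 without the mean-variance trend. Limma's default array weights gave 6030 and 35, with a weight of 44.7 for KD 2, and the estimate stopped before it converged. Weights estimated gene by gene, chosen after seeing this, gave 3599 and 26. With 1 library left out the members' median ran from -0.23 to 0.0321 and Sf3b3 from -1.43 to -1.15, its call lost without PLKO 1, PLKO 2, KD 1 or KD 2. Signs changed for members that were called neither with nor without the block. Quantile normalization gave Ube2c 0.0171 and Racgap1 0.0209, and median centring gave Cdc20 0.00683, Ube2c 0.0413 and Racgap1 0.0363. Default weights gave Ttk -0.0030, Cdc20 0.0565, Cenpf -0.28, Cenpk -0.14 and Kif2c -0.12, and gene-by-gene weights gave Cdc20 0.0383, Cenpf -0.0065 and Kif2c -0.0525. Without both libraries numbered 3, Cdc20 stood at 0.0045, Kif2c at -0.12 and Racgap1 at 0.0201. With 1 library left out, ranges across zero were -0.37 to 0.0075 for Ccnb2, -0.40 to 0.00075 for Cdc25b, -0.23 to 0.0543 for Plk1, -0.43 to 0.25 for Mybl2, -0.40 to 0.0615 for Bub1, -0.13 to 0.0059 for Cdc20, -0.23 to 0.14 for Ube2c, -0.57 to 0.12 for Cenpe, -0.0163 to 0.80 for Cenpf, -0.0816 to 0.28 for Kif2c, -0.54 to 0.0321 for Ckap2 and -0.0783 to 0.0928 for Racgap1. The cause of these changes was not tested. Cenpk had the fewest reads of the members, 97 in PLKO 2, and the part of counting noise in its spread was not tested.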
